A study of Mus musculus with 4 samples.

Results

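Genes for the recognition of dying cells were followed in marginal zone macrophages, phagocytes at the edge of the splenic white pulp. The set held the receptor kinases Mertk, Axl and Tyro3, their ligands Gas6 and Pros1, the phosphatidylserine binders Mfge8, Timd4 and Anxa1, and the engulfment adaptors Elmo1 and Gulp1. These 10 genes, of 19057 with a singly named probe, were chosen by name, with earlier results of these data known. They had 26 probes, of which 18 were bright enough to be tested. The tested probes covered 8 of the genes, because no probe of Tyro3 or Gulp1 rose above background on any array.

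The samples were 4 single-colour bead arrays, each hybridised with RNA pooled from the macrophages of 2 mice aged 2.5 months. The Ifnar-/- array (n = 1) came from BXD2-Ifnar-/- mice, which lack the type I interferon receptor, given PBS. The sLTβR-Fc array (n = 1) came from BXD2 mice with the receptor intact, given 25 µg per mouse intravenously of sLTβR-Fc, a soluble decoy that binds lymphotoxin. The BXD2 PBS arrays (n = 2, the controls) came from BXD2 mice with the receptor intact, given PBS. Every animal thus carried the BXD2 background, a recombinant inbred strain that develops lupus-like autoimmunity, and was killed 10 hours after its injection. No array carried a control Fc protein, so an effect of the decoy's lymphotoxin binding and one of its Fc part cannot be told apart. The submitters describe these macrophages as spontaneously defective in BXD2 mice, normalised in Ifnar-/- mice and further impaired by sLTβR-Fc, and the comparisons ask how the genes for apoptotic cell uptake stood in those states.

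Dying cells expose phosphatidylserine on their outer membrane. Gas6 and protein S, the product of Pros1, bridge this lipid to the TAM receptor kinases Tyro3, Axl and Mertk, while Mfge8 bridges it to αv integrins and Timd4 binds it directly. Elmo1 acts with Dock proteins to activate Rac and drive engulfment, Gulp1 is an adaptor downstream of engulfment receptors, and Anxa1 is an annexin that binds phosphatidylserine and limits inflammation. Marginal zone macrophages are known for capturing apoptotic cells from the blood, and defects in this clearance are linked to lupus.

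The promoters of the members whose probes changed, and of Timd4, are printed because one comparison removes an interferon receptor, and interferon acts through short motifs in promoters. They are RefSeq sequences of GRCm38.p6, each 250 bases before to 50 bases after a gene's start, read 5′ to 3′ on the gene's strand, and they are not sequences of BXD2 mice. Capitals mark any match to the 4 motifs searched.
Axl, chr7:25788684-25788983, minus strand: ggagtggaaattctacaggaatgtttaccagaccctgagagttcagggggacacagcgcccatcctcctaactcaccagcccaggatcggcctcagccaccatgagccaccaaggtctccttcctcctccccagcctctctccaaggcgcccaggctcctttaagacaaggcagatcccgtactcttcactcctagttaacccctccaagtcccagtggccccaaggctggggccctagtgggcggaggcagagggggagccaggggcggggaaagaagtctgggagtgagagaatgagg
Mfge8, chr7:79149011-79149310, minus strand: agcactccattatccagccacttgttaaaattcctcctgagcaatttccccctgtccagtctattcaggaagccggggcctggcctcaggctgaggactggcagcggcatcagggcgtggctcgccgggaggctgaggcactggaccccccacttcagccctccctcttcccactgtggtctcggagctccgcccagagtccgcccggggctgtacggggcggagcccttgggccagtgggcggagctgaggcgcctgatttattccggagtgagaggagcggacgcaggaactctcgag
Timd4, chr11:46810549-46810848, plus strand: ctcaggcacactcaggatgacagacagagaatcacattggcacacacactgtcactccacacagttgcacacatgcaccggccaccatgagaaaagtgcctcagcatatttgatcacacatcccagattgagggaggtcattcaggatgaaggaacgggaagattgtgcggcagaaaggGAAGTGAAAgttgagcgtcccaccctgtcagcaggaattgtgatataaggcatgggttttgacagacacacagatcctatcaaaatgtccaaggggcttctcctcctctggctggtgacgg
Elmo1, upstream start, chr13:20090257-20090556, plus strand: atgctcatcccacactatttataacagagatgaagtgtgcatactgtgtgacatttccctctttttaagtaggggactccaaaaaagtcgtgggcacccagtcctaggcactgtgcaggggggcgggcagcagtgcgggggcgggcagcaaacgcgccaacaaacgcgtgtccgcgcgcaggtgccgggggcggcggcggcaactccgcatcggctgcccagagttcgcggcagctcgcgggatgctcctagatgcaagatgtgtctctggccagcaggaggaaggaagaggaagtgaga
Elmo1, downstream start, chr13:20472740-20473039, plus strand: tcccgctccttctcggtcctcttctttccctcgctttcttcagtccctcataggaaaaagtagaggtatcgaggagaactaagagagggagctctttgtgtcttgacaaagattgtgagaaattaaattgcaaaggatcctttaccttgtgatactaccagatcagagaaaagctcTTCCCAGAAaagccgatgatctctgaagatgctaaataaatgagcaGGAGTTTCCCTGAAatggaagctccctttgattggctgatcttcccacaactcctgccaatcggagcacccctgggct
Elmo1 has 2 annotated starts, and none of the sources used here ties its probes' transcripts to either of them. The members matched 11 promoter windows in all, with at least 1 for each gene. Motifs were searched on both strands. The ISRE core, the interferon-stimulated response element of 2 copies of GAAA separated by NN, lay in 0 of 11 member windows, against 3.44% of all 32841 promoters of this length. The IRF core GAANNGAAA, a shorter motif of the same family of factors, lay in 1 member window, that of Timd4, against 7.51% of all promoters. The STAT motif TTCNNNGAA lay in 2 member windows, those of Pros1 and of the downstream Elmo1 start, against 8.3% of all promoters. The NF-κB consensus, the motif of the factors downstream of the lymphotoxin β receptor, also lay in 2 member windows, against 4.51% of all promoters. Those windows were of Tyro3 and of the downstream Elmo1 start, where the motif overlaps a STAT motif. A match says only that these letters occur in the window.

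The deposited intensities put 52.5% to 53.8% of the probes above the background limit of each array. Marco, Cd209b (which encodes the SIGN-R1 protein of the sort) and Nr1h3, genes that mark marginal zone macrophages, were above background on all 4 arrays. By its brightest probe none of the 3 passed the test in either comparison. Their intensities were low beside the mean background limit of 110.7, at 162 to 252 for Marco, 127 to 152 for Cd209b and 136 to 179 for Nr1h3. Probes near background cannot show small changes. Siglec1, which marks the neighbouring metallophilic macrophages, was above background on none. Cd209a, listed beside Siglec1, had 178 on the Ifnar-/- array, 109 on the sLTβR-Fc array, and 117 and 104 on the BXD2 PBS arrays. Cd209a was above background for Ifnar-/- and the first BXD2 PBS array only. Its log2 difference for Ifnar-/- against the controls was 0.69, and which cells carried it was not tested. Transcripts of other cells were bright in spite of the sort. Mpo, a neutrophil granule enzyme, had normalised intensities of 12438 on the Ifnar-/- array, 31594 on the sLTβR-Fc array, and 25201 and 19311 on the BXD2 PBS arrays. Cd79b, a B cell receptor subunit, had 13760 on the Ifnar-/- array, 6305 on the sLTβR-Fc array, and 9386 and 9488 on the BXD2 PBS arrays. In such bulk RNA fewer cells of a type and less RNA per cell cannot be told apart.

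Each difference below is a log2 difference of quantile-normalised intensities with its SE from 1 limma fit over 19388 probes, with Benjamini-Hochberg adjusted p-values over all of them. The lone Ifnar-/- and sLTβR-Fc arrays were assumed to vary like the BXD2 PBS pair, which both comparisons share. The labels do not say whether the BXD2 PBS arrays came from separate mice, so every p-value reflects only how far that pair differs, perhaps for technical reasons. That spread is taken mostly over all probes of like intensity. A probe's own gap within the pair weighs little, with 1 residual degree of freedom beside a prior of 24.5. Where values were raised to the background limit before the fit, limma called 0 probes in each comparison, although 3868, 4582 and 3538 had an unadjusted p under 0.05 in the Ifnar-/-, the sLTβR-Fc and the direct comparison.

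Against the controls, 3 of the 18 member probes passed on the Ifnar-/- array, where 12.9% of all probes tested did, and 2 of 18 passed on the sLTβR-Fc array, where 15.8% of all did. Both shares lie near the background, so the members did not stand out as a set. Axl and 1 Elmo1 probe were lower on the Ifnar-/- array and 1 Mfge8 probe was higher, beside 6.75% of all probes called lower and 6.12% called higher. The 2 called probes of the sLTβR-Fc array were both of Elmo1 and both lower, beside 7.95% of all called lower and 7.85% called higher. In the direct comparison of the Ifnar-/- with the sLTβR-Fc array 3 of the 18 passed, 2 Elmo1 probes higher and Axl lower, beside 9.17% of all probes (4.46% higher, 4.71% lower). No member probe was at least 2-fold from each control in either direction, beside 0.588% of all probes higher and 0.934% lower on the Ifnar-/- array and 0.934% higher and 0.485% lower on the sLTβR-Fc array. The Ifnar-/- array lay above both controls for 13 member probes and below both for 4, beside 42.7% and 36.5% of all probes. Of these, 8 and 2 were probes of Elmo1 alone. By the brightest probe of each of the 8 genes it lay above both for 5 and below both for 2, beside 44.2% and 35.7% of all genes. The sLTβR-Fc array lay above both controls for 5 member probes and below both for 8, of which 3 and 7 were of Elmo1, beside 41.2% and 40.1% of all probes. By gene it lay above both for 2 and below both for 1, beside 45% and 36.4% of all genes. With the values as deposited or under median scaling, 26 differences of member probes took the other sign. With the first BXD2 PBS array left out, the sLTβR-Fc array lay above the other one for 10 member probes and below it for 8, and with the second left out above for 5 and below for 13. Over the brightest tested probe of each of the 8 genes the median log2 difference was 0.086 on the Ifnar-/- array, with a range of -1.48 to 0.38, beside 0.021 over all 12456 genes tested. For sLTβR-Fc it was 0.031, with a range of -0.46 to 0.55, beside 0.024 over all genes.

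**Figure D1:**
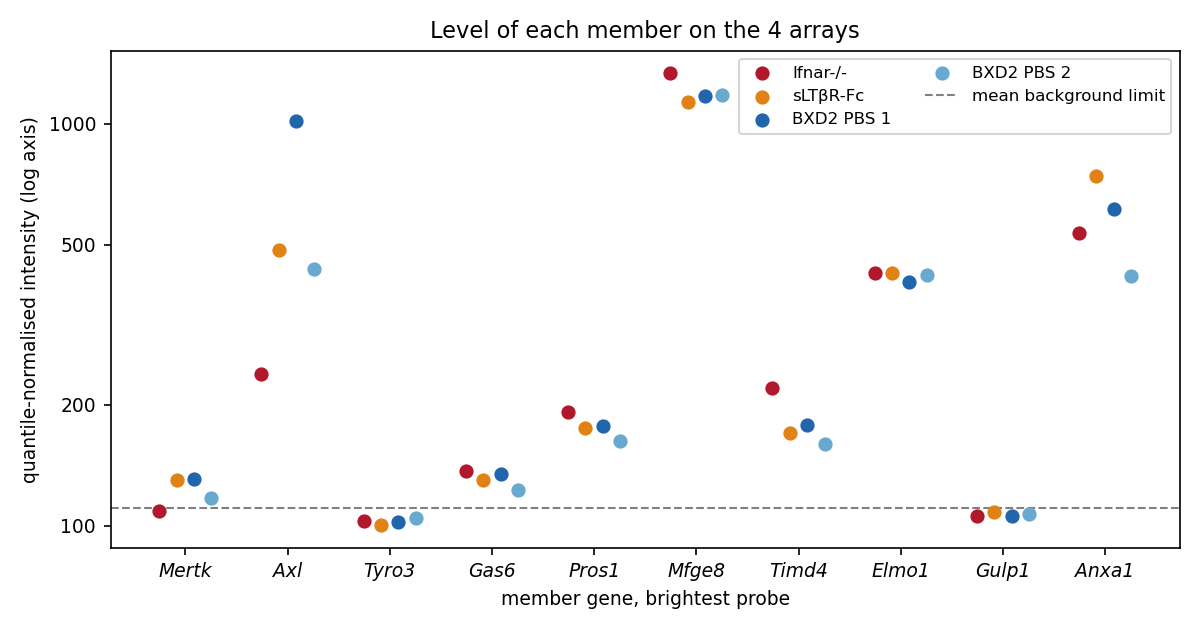
Quantile-normalised intensity (log axis) of the brightest probe of each of the 10 members on the Ifnar-/-, the sLTβR-Fc and both BXD2 PBS arrays, 1 point per array, with the mean background limit as a dashed line. Axl spans the widest range, 238 to 1016, and Tyro3 and Gulp1 lie under the limit.

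**Figure D2:**
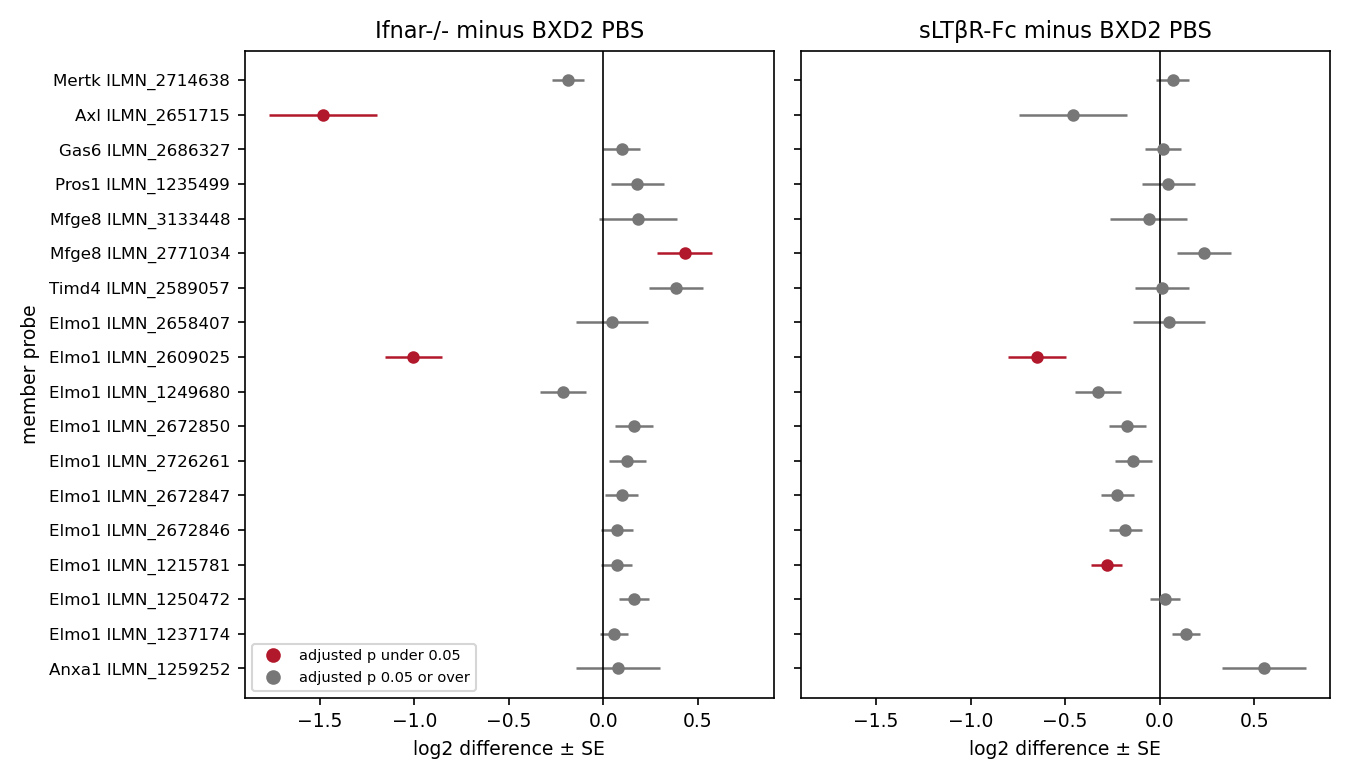
Log2 differences of the 18 tested member probes against the BXD2 PBS mean, with the SE of the limma fit as bars, for the Ifnar-/- array in one panel and the sLTβR-Fc array in the other. Red points mark a Benjamini-Hochberg adjusted p under 0.05, 3 in the Ifnar-/- panel and 2 in the sLTβR-Fc panel.

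Among the TAM receptors, Axl was the member with the largest difference. This kinase, whose ligand is Gas6, is known to be induced by interferon in dendritic cells and macrophages. Its main probe, for transcript NM_009465, had a normalised intensity of 238 on the Ifnar-/- array, 485 on the sLTβR-Fc array, and 1016 and 436 on the BXD2 PBS arrays. The Ifnar-/- array was below both controls, whereas the sLTβR-Fc array lay between them. The Ifnar-/- difference was -1.48 ± 0.29, an intensity 2.80-fold lower (limma, adjusted p = 0.000765, 95% interval -2.07 to -0.896). It was -2.09 against the first BXD2 PBS array and -0.875 against the second, so the size depends on which control is used.

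The gap between the BXD2 PBS arrays themselves was -1.22 for Axl, second minus first, and only 30 of the tested probes (0.155%) had a wider one. The SE and intervals of Axl rest mostly on the spread of other probes, so they understate this gap. With sLTβR-Fc Axl differed by -0.46 ± 0.29 (limma, adjusted p = 0.297, 95% interval -1.05 to 0.13). Against the first control that difference was -1.07 and against the second it was 0.15, so its direction turned with the control. In the direct comparison Axl was lower on the Ifnar-/- array than on the sLTβR-Fc array by a log2 of -1.03 ± 0.33 (limma, adjusted p = 0.0499). The call of Axl on the Ifnar-/- array was lost with values raised to the background limit (adjusted p = 0.304) and without the variance trend of the fit (adjusted p = 0.172). A call on the sLTβR-Fc array appeared with the values as deposited (-1.13, adjusted p = 0.0216) and under median scaling (-0.69, adjusted p = 0.00545). A second Axl probe, placed on the clone AK033237, was above background on the sLTβR-Fc array alone and was not tested.

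Some red pulp macrophage markers moved with Axl across the 4 arrays. Vcam1, an adhesion molecule of these cells, had 235 on the Ifnar-/- array, 756 on the sLTβR-Fc array, and 1344 and 486 on the BXD2 PBS arrays. Slc40a1, the iron exporter ferroportin, had 562 on the Ifnar-/- array, 1709 on the sLTβR-Fc array, and 2913 and 1594 on the BXD2 PBS arrays. Both fell on the Ifnar-/- array with log2 differences of -1.78 and -1.94 (limma, adjusted p = 0.000409 and 6.8e-06), although the other tested Vcam1 probe differed by only -0.085. All 8 red pulp markers listed were tested, and on the Ifnar-/- array 3 lay above both controls and 4 below both, with Adgre1, which encodes the F4/80 protein, and Hpgd called higher. The summed intensity of the list was 2834 on the Ifnar-/- array, 4011 on the sLTβR-Fc array, and 6092 and 3208 on the BXD2 PBS arrays. The part of these cells in the Axl difference was not tested.

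**Figure D3:**
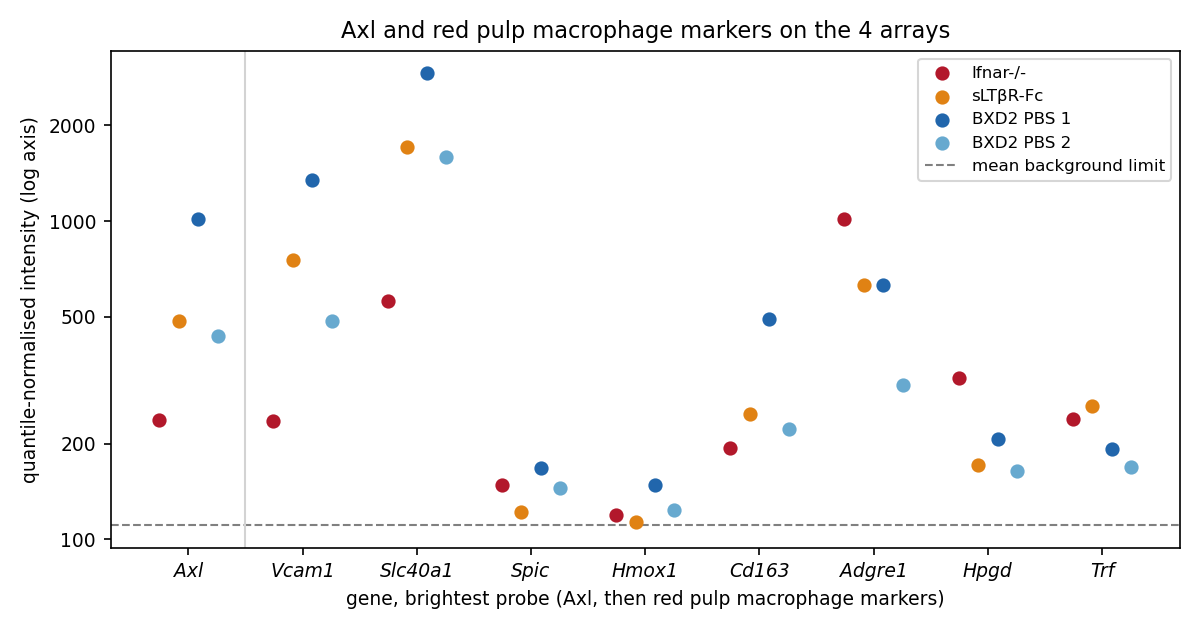
Quantile-normalised intensity (log axis) of Axl and of the red pulp macrophage markers, 1 point per array, for the Ifnar-/-, the sLTβR-Fc and both BXD2 PBS arrays. Axl, Vcam1 and Slc40a1 are each lowest on the Ifnar-/- array and highest on the first BXD2 PBS array, while Adgre1 is highest on the Ifnar-/- array.

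The 5 genes whose differences from the control mean over the 4 arrays lay closest to those of Axl, among 12455 searched by Euclidean distance in log2 units, were Coq10b (0.27), Pole3 (0.40), Slc4a1 (0.43), Hba-a1 (0.47) and Chil4 (0.49). Slc4a1 and Hba-a1 encode the red cell anion exchanger and an α-globin. Slc4a1 had 486 on the Ifnar-/- array, 801 on the sLTβR-Fc array, and 2322 and 701 on the BXD2 PBS arrays. The erythroid marker list, of which 3 of 5 genes were tested, summed to 755 on the Ifnar-/- array, 796 on the sLTβR-Fc array, and 1819 and 1308 on the BXD2 PBS arrays. The likeness rests on 4 points per gene, and the further probes of Coq10b had a median Ifnar-/- difference of 0.32, opposite in sign to its brightest probe.

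Mertk, the TAM kinase most tied to corpse uptake by macrophages, was close to background. It had 109 on the Ifnar-/- array, 130 on the sLTβR-Fc array, and 131 and 117 on the BXD2 PBS arrays. The Ifnar-/- value was below both controls, by a log2 of -0.27 from the first and -0.11 from the second. It was not above background, so it lay at least 1.12-fold below the mean of the controls. The fit did not call this difference (limma, adjusted p = 0.163). Mertk on the sLTβR-Fc array lay between the controls, with a log2 difference of 0.07 ± 0.09 (limma, adjusted p = 0.634). The one Tyro3 probe had 103 on the Ifnar-/- array, 100.2 on the sLTβR-Fc array, and 102 and 104 on the BXD2 PBS arrays, all under the limit. These probes cannot show whether Tyro3 differed.

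Timd4, which encodes the phosphatidylserine receptor Tim-4, had 220 on the Ifnar-/- array, 170 on the sLTβR-Fc array, and 178 and 159 on the BXD2 PBS arrays. The Ifnar-/- array was above both controls, by 0.38 ± 0.14 on the log2 scale, and did not pass the threshold (limma, adjusted p = 0.0814, 95% interval 0.087 to 0.678). It did pass when probes above background on at least 1 array were tested (limma, adjusted p = 0.045). With sLTβR-Fc the value lay between the controls.

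Neither soluble TAM ligand passed the test. Gas6 had 137 on the Ifnar-/- array, 130 on the sLTβR-Fc array, and 135 and 122 on the BXD2 PBS arrays. Pros1 had 192 on the Ifnar-/- array, 175 on the sLTβR-Fc array, and 177 and 163 on the BXD2 PBS arrays. For both genes the Ifnar-/- array was just above both controls and the sLTβR-Fc array between them. The Ifnar-/- log2 difference had a 95% interval of -0.10 to 0.29 for Gas6 and of -0.11 to 0.47 for Pros1. With sLTβR-Fc the intervals were -0.18 to 0.21 for Gas6 and -0.24 to 0.33 for Pros1. Intensities this near background compress a change in RNA, so the intervals hold for the intensities.

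Mfge8 encodes the milk fat globule protein that links dying cells to integrins, and its probes for transcripts NM_001045489 and NM_008594 differed in their calls. The NM_008594 probe had 221 on the Ifnar-/- array, 193 on the sLTβR-Fc array, and 158 and 170 on the BXD2 PBS arrays. Both single arrays were above both controls. The Ifnar-/- difference was 0.43 ± 0.14, or 1.35-fold (limma, adjusted p = 0.0496, 95% interval 0.13 to 0.73), and the sLTβR-Fc difference was 0.23 ± 0.14 (limma, adjusted p = 0.288). The NM_001045489 probe had 1337 on the Ifnar-/- array, 1131 on the sLTβR-Fc array, and 1173 and 1182 on the BXD2 PBS arrays. That is above both controls on the Ifnar-/- array and below both on the sLTβR-Fc array, with log2 differences of 0.18 ± 0.20 and -0.06 ± 0.20 (limma, adjusted p = 0.632 and 0.883). The NM_008594 call lay at the threshold and was lost with the values as deposited (adjusted p = 0.360), with values raised to the background limit (0.235), without the variance trend (0.0991) and among probes above background on all 4 arrays (0.0501).

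Anxa1, the annexin secreted by myeloid cells that acts through formyl peptide receptors, had 535 on the Ifnar-/- array, 744 on the sLTβR-Fc array, and 615 and 419 on the BXD2 PBS arrays. The Ifnar-/- array lay between the controls and the sLTβR-Fc array above both. The sLTβR-Fc difference was the highest of any member, 0.55 ± 0.22 or 1.47-fold, and did not pass (limma, adjusted p = 0.0905, 95% interval 0.098 to 1.01). Its size matched the gap of -0.55 between the BXD2 PBS arrays, second minus first, and it turned to -0.14 with the values as deposited and passed with 1 probe per gene (limma, adjusted p = 0.0486). The genes closest to Anxa1 over the 4 arrays were Klf6 (0.078), Ace (0.11), Wwtr1 (0.13), Hspa5 (0.15) and Igfbp7 (0.15), by the same distance. Klf6, a zinc finger transcription factor, had 10362 on the Ifnar-/- array, 14458 on the sLTβR-Fc array, and 11641 and 8523 on the BXD2 PBS arrays. Granulocytes also express Anxa1. The summed intensity of 6 eosinophil markers was 4418 on the Ifnar-/- array, 28042 on the sLTβR-Fc array, and 5184 and 5871 on the BXD2 PBS arrays. Prg2, with 19445 on the sLTβR-Fc array, is the largest part of it, and Siglecf and Ccr3 were too dim to be tested. The 10 neutrophil markers summed to 16232 on the Ifnar-/- array, 57814 on the sLTβR-Fc array, and 46807 and 32027 on the BXD2 PBS arrays. Mpo, with 31594 on the sLTβR-Fc array, is the largest part of that sum. Of the 10, only 4 lay above both controls on the sLTβR-Fc array and 2 lay below both, with a median log2 difference of 0.10. The part of granulocytes in the Anxa1 values was not tested.

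Elmo1, the partner of Dock proteins, had 14 probes that gave unlike answers. One of them, ILMN_2609025 for transcript NM_080288, had 133 on the Ifnar-/- array, 170 on the sLTβR-Fc array, and 264 and 268 on the BXD2 PBS arrays. Both single arrays were below both controls, which lay within 0.020 of each other on the log2 scale. Its Ifnar-/- difference was -1.01 ± 0.15, to 0.498 of the control intensity (limma, adjusted p = 4.77e-05, 95% interval -1.32 to -0.69). Its sLTβR-Fc difference was -0.65 ± 0.15, to 0.638 of the control intensity (limma, adjusted p = 0.00438, 95% interval -0.96 to -0.34). The single arrays did not differ from each other at the threshold for this probe (-0.36, limma, adjusted p = 0.22). Both calls were lost with values raised to the background limit (adjusted p = 0.216 and 0.176).

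The brightest Elmo1 probe, ILMN_2658407 for transcript NM_198093, gave other values. It had 425 on the Ifnar-/- array, 426 on the sLTβR-Fc array, and 403 and 421 on the BXD2 PBS arrays, with log2 differences of 0.05 ± 0.19 and 0.05 ± 0.19 (limma, adjusted p = 0.918 and 0.894). With the values as deposited its sLTβR-Fc difference was -0.60 and passed (limma, adjusted p = 0.0335). A further probe of the called probe's own transcript, ILMN_1249680, had 146 on the Ifnar-/- array, 135 on the sLTβR-Fc array, and 159 and 180 on the BXD2 PBS arrays. It lay below both controls on both single arrays and was not called (limma, adjusted p = 0.287 and 0.073). On the Ifnar-/- array 8 of the 10 tested Elmo1 probes lay above both controls and 2 below both, although 7 of those 8 had a negative difference with the values as deposited. The 2 below were ILMN_2609025 and ILMN_1249680. All other tested probes of their transcript, NM_080288, were among the 8 above and showed no fall. Their mean intensities were only 120 to 135, near the limit of 110.7, where a fall as large as that of ILMN_2609025 cannot appear.

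On the sLTβR-Fc array 7 tested Elmo1 probes lay below both controls and 3 above both, although 5 of those 7 had a positive difference under median scaling. The other called one was ILMN_1215781, which had 130 on the Ifnar-/- array, 102 on the sLTβR-Fc array, and 120 and 129 on the BXD2 PBS arrays. It was not above background on the sLTβR-Fc array, which puts it at least 1.12-fold below the mean of the controls (limma, adjusted p = 0.0192). The difference from the controls turned to 0.08 under median scaling (adjusted p = 0.671), and the call was lost with values raised to the background limit (0.257) and without the variance trend (0.205). ILMN_1215781 and ILMN_2672847 were the Elmo1 probes called between the single arrays (limma, adjusted p = 0.0174 and 0.0436). Neither was above background on the sLTβR-Fc array, so the Ifnar-/- intensity was at least 1.17-fold higher for ILMN_1215781 and at least 1.23-fold higher for ILMN_2672847. The probes' own sequences were not used here, so the exons behind these differences are not known.

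**Figure D4:**
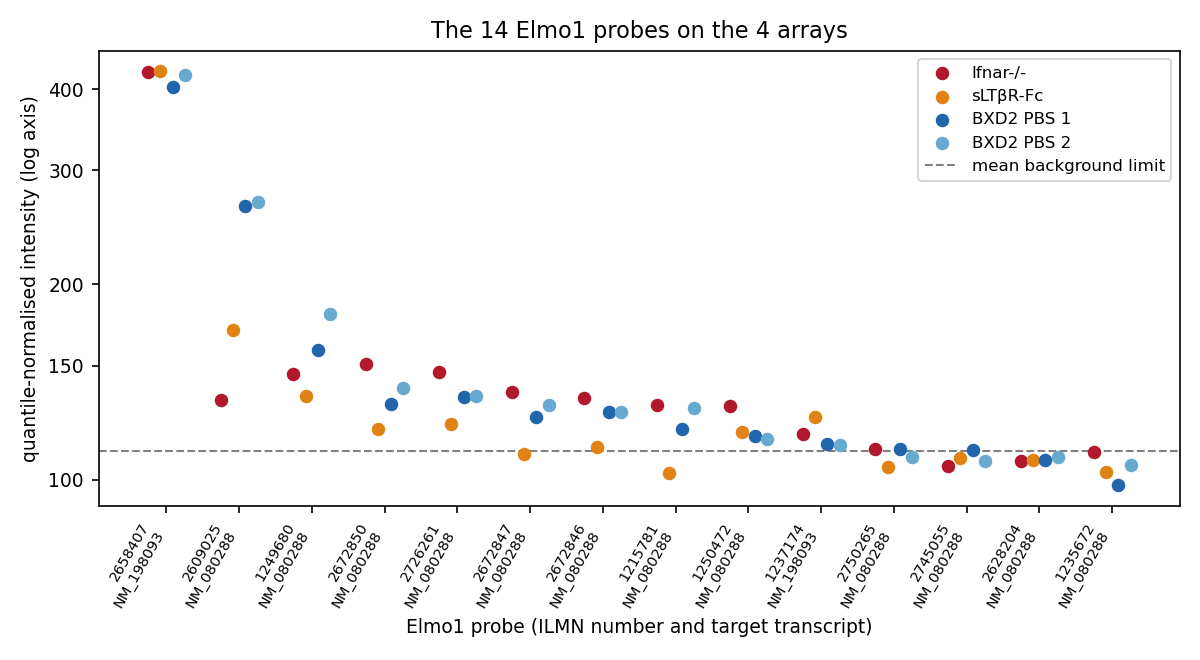
Quantile-normalised intensity (log axis) of the 14 Elmo1 probes on the Ifnar-/-, the sLTβR-Fc and both BXD2 PBS arrays, 1 point per array, with the mean background limit as a dashed line. On ILMN_2609025 the Ifnar-/- point (133) and the sLTβR-Fc point (170) lie below the BXD2 PBS points (264 and 268), and on ILMN_2658407 all 4 points lie between 403 and 426.

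Gulp1, the other engulfment adaptor, had 2 probes and no measurable level. The first had 106 on the Ifnar-/- array, 108 on the sLTβR-Fc array, and 106 and 107 on the BXD2 PBS arrays. The other had 97.8 on the Ifnar-/- array, 101 on the sLTβR-Fc array, and 104 and 105 on the BXD2 PBS arrays, so no direction can be read for this gene.

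The rest of the uptake machinery was described from 8 lists of 96 genes, of which 80 were tested by their brightest probe. On the Ifnar-/- array 14 of the 80 rose and 7 fell by the limma test, beside 6.58% and 6.83% of all genes tested, and the median log2 difference was 0.11, or -0.13 with the values as deposited. There 45 lay above both controls and 23 below both, beside 44.2% and 35.7% of all genes. With sLTβR-Fc 14 rose and 6 fell, beside 9.22% and 6.9% of all genes, with a median of 0.099, or -0.34 with the values as deposited. There 44 lay above both controls and 21 below both, beside 45% and 36.4% of all genes. At least 2-fold from each control were 1 list gene on the Ifnar-/- array, lower, and 2 on the sLTβR-Fc array, higher, beside 1.11% of all genes lower and 0.666% higher on the Ifnar-/- array, 1.19% higher and 0.554% lower with sLTβR-Fc. The deposited scale itself shifted the median of all probes by -0.15 for Ifnar-/- and -0.27 for sLTβR-Fc. Genes named below were, apart from Pik3r1, Anxa3 and S100a11, chosen after their values were seen, as the ones that passed. On the Ifnar-/- array 5 of 6 tested dendritic cell markers lay above both controls (median log2 difference 0.80). So did 5 of 5 tested B cell markers (0.54) and 2 of 3 NK cell markers (0.43). Below both lay 10 of 10 neutrophil markers (-1.31) and 5 of 6 T cell markers (-0.57). The part of these cells in the list values was not tested.

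Further receptors for dying cells included genes called on both single arrays. Of 12 tested, 4 rose on the Ifnar-/- array and 1 fell, beside 6.58% and 6.83% of all genes, with a median log2 difference of 0.19. Those that rose were Stab2, a phosphatidylserine receptor (0.84 ± 0.23, adjusted p = 0.0155), Havcr2, which encodes Tim-3 (0.94 ± 0.19, adjusted p = 0.00124), the scavenger receptor Cd36 (0.49 ± 0.10, adjusted p = 0.00125) and the C1q and calreticulin receptor Lrp1 (0.44 ± 0.14, adjusted p = 0.0361), all by limma. For Stab2 the gap between the BXD2 PBS arrays, second minus first, was -0.77, so the size of its rise depends on which control is used. Stab1, the sister receptor of Stab2, had 240 on the Ifnar-/- array, 943 on the sLTβR-Fc array, and 488 and 361 on the BXD2 PBS arrays. It fell on the Ifnar-/- array (-0.81 ± 0.21, limma, adjusted p = 0.00958) and rose on the sLTβR-Fc array (1.17 ± 0.21, limma, adjusted p = 0.000319). Its 2 further tested probes had median differences of -0.11 and 0.43 on these arrays, so they did not show differences of that size.

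On the sLTβR-Fc array 4 receptors rose and 0 fell by limma, and 10 of the 12 lay above both controls. Beside Stab1 these were Cd14 (1.11 ± 0.16), Havcr2 (0.65 ± 0.19) and the C1q receptor Scarf1 (0.58 ± 0.15), with limma adjusted p-values of 2.9e-05, 0.0217 and 0.00826. The list's median log2 difference there was 0.50, beside 0.024 over all genes tested. Of all genes 9.22% rose, 6.9% fell and 45% lay above both controls. The list was chosen with earlier results known, and the median of all lists together was negative with the values as deposited.

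Among further bridging molecules, 3 of 6 tested fell on the Ifnar-/- array, beside 6.83% of all genes. They were the 3 chains of C1q, the complement protein that coats dying cells. C1qa had 119 on the Ifnar-/- array, 147 on the sLTβR-Fc array, and 168 and 148 on the BXD2 PBS arrays. C1qa differed by -0.41 ± 0.11 and C1qc by -0.36 ± 0.12 on the Ifnar-/- array (limma, adjusted p = 0.0176 and 0.0467). C1qb had 107 on the Ifnar-/- array, 148 on the sLTβR-Fc array, and 208 and 127 on the BXD2 PBS arrays. It was not above background on the Ifnar-/- array, at least 1.47-fold below the mean of the controls (limma, adjusted p = 0.0157). The gap between the BXD2 PBS arrays, second minus first, was -0.72 for C1qb and -0.41 for C1qc. Both gaps were wider than the Ifnar-/- differences of these genes, so the sizes depend on which control is used. All 3 chains were near background on the Ifnar-/- array. None of the 6 passed on the sLTβR-Fc array, with limma adjusted p-values of 0.569 for C1qa, 0.631 for C1qb and 0.0688 for C1qc.

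In the engulfment machinery 4 of 17 genes rose on the Ifnar-/- array and 0 fell, beside 6.58% and 6.83% of all genes. Rac2, the blood cell GTPase that Elmo and Dock activate together with Rac1, had 1675 on the Ifnar-/- array, 1092 on the sLTβR-Fc array, and 770 and 916 on the BXD2 PBS arrays. Its Ifnar-/- log2 difference was 1.00 ± 0.21 (limma, adjusted p = 0.00178). Was, the actin regulator mutated in Wiskott-Aldrich syndrome, rose by 0.86, Rhog, the GTPase that binds Elmo, by 0.66 and the lipid transporter Abca7 by 0.64 (limma, adjusted p = 0.00488, 0.0207 and 0.0278). On the sLTβR-Fc array Abca7 and the GTPase Arf6 rose by 0.59 and 0.65, while Dock2, the blood cell partner of Elmo1, fell by 0.62 and the adaptor Crk fell by 0.71 (limma, adjusted p = 0.0378, 0.0252, 0.0135 and 0.0208). The further probes of Crk had a median difference of 0.0054 there.

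Of 8 find-me and don't-eat-me genes, 3 rose on the Ifnar-/- array, beside 6.58% of all genes. These were the fractalkine receptor Cx3cr1 (0.89 ± 0.19), its ligand Cx3cl1 (0.38 ± 0.10) and the CD47 receptor Sirpa (0.74 ± 0.19), with limma adjusted p-values of 0.00196, 0.0131 and 0.0105. Sirpa also rose on the sLTβR-Fc array, by 0.66 (limma, adjusted p = 0.0201). Of the 5 genes for vitamin K dependent carboxylation of the ligands and for receptor shedding, none passed on the Ifnar-/- array, while on the sLTβR-Fc array Adam10, a protease that sheds receptors from the surface, fell by 0.34 (limma, adjusted p = 0.045).

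Among 8 tested genes of TAM signalling, Pik3r1 was the one at least 2-fold from each control. This regulatory subunit of PI3 kinase had 777 on the Ifnar-/- array, 1756 on the sLTβR-Fc array, and 2776 and 2616 on the BXD2 PBS arrays. It was that far below them on the Ifnar-/- array, at -1.79 ± 0.20 (limma, adjusted p = 8.53e-07), and it fell by 0.62 on the sLTβR-Fc array (limma, adjusted p = 0.0357). Another Pik3r1 probe differed by -1.67 and -0.57 on these arrays. Plcg2 rose by 0.78 on the Ifnar-/- array. On the sLTβR-Fc array Socs3, an inhibitor of cytokine signalling, rose by 0.72, the adaptor Grb2 by 0.34, and the catalytic subunit Pik3ca fell by 0.53 (limma, adjusted p = 0.0147, 0.0172, 0.0396 and 0.0429 for these 4 genes).

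Other annexins and their partners included both genes of the lists that were at least 2-fold above each control on the sLTβR-Fc array. Anxa3, an annexin abundant in neutrophils, had 632 on the Ifnar-/- array, 4394 on the sLTβR-Fc array, and 1355 and 1062 on the BXD2 PBS arrays. It fell on the Ifnar-/- array (-0.92 ± 0.21, limma, adjusted p = 0.00377) and rose on the sLTβR-Fc array (1.87 ± 0.21, limma, adjusted p = 1.04e-06). S100a11, a calcium-binding partner of Anxa1, had 566 on the Ifnar-/- array, 1209 on the sLTβR-Fc array, and 448 and 425 on the BXD2 PBS arrays. Its sLTβR-Fc difference was 1.47 ± 0.20 (limma, adjusted p = 1.4e-05). Fpr2, a receptor for Anxa1, fell by 0.88 on the Ifnar-/- array and Anxa2 rose by 0.54 there (limma, adjusted p = 0.00943 and 0.036). These values stand beside the neutrophil and eosinophil sums given for Anxa1, and the part of those cells in them was not tested.

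Of 14 genes for the digestion of engulfed corpses, 1 rose on the Ifnar-/- array, Rubcn, the Rubicon protein of LC3-associated phagocytosis (0.72 ± 0.19, limma, adjusted p = 0.0127). On the sLTβR-Fc array the lysosomal membrane gene Lamp2 rose by 0.79, the autophagy enzyme gene Atg7 by 0.68 and the endosomal GTPase gene Rab5a by 0.56, while the lysosomal nuclease gene Dnase2a fell by 0.75 (limma, adjusted p = 0.00443, 0.00573, 0.0399 and 0.00255). Further probes gave a median of 0.13 for Lamp2, 0.096 for Rab5a and 0.040 for Dnase2a, so the further probes did not show differences of that size.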

How the data were processed

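RNA of sorted macrophages was labelled as biotin cRNA and hybridised to Illumina mouse arrays, per the labels' protocols. The authors deposited linear intensities of 45281 probes on each array. The submitters' processing notes name GenomeStudio 2011.1. Those sources do not state a background subtraction or scaling.

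The members, gene lists and tests were chosen with earlier results of these data known. Probes were named by the platform annotation (34885 with 1 symbol, 18 with several, 10378 with none). Of 19057 symbols, 18992 were found in the reference table, all under the same symbol. An array's background limit was the most frequent intensity plus the 95% point of the noise below it mirrored about it (105.9 to 115.5).

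Intensities were quantile normalised and converted to log2 with no floor, because ties at a floor distort the shared variance. Probes with 1 symbol and a mean above 110.7 were tested, 19388 in all, in limma 3.58.1 (R 4.3.3), with 3 group means, a variance trend, 1 residual degree of freedom (prior 24.5) and Benjamini-Hochberg adjustment to 0.05. The fit was tested on simulated data. A value bounded by background is given as at least so many fold, against the lowest signal above background. The number of arrays, 4, limits the precision.

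Named were all member probes, list genes whose brightest probe lay at least 2-fold from each control, and the 5 nearest genes to the members with the widest range and the largest sLTβR-Fc difference. Alternatives were other scaling, background correction, filters, a floor, no variance trend, 1 probe per gene and leaving out a control array.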

Additional observations from a re-analysis of the deposited data

How the results depend on the processing

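No paired analysis was possible because the groups share fewer than 2 replicate numbers. Of 370 repeats of member differences, 314 kept direction and, where there was a p-value, side of the threshold. A further 10 lost the call, 14 gained it and 26 changed sign under another scaling. The repeats that left out a control array had no residual spread and so no p-value, and only their direction could be compared. A further 6, none of them called, changed sign when 1 control array was left out, Axl (0.15, without the first) and Anxa1, Mertk, Gas6, Pros1 and Timd4 (-0.20 to -0.011, without the second), all for sLTβR-Fc but Anxa1. With the values as deposited the Ifnar-/- log2 difference turned to -0.055 for Gas6, -0.046 for Pros1, -0.16 for Mfge8 (NM_001045489), -0.21 for Anxa1, and for Elmo1 to -0.25 (ILMN_2658407), -0.00015 (ILMN_2672850), -0.037 (ILMN_2726261), -0.042 (ILMN_2672847), -0.063 (ILMN_2672846), -0.055 (ILMN_1215781) and -0.060 (ILMN_1237174). The sLTβR-Fc difference turned to -0.068 for Mertk, -0.12 for Gas6, -0.31 for Pros1, -0.15 for Mfge8 (NM_008594), -0.33 for Timd4, -0.14 for Anxa1, and for Elmo1 to -0.60 (ILMN_2658407, which then passed, limma adjusted p = 0.0335) and -0.067 (ILMN_1250472). Under median scaling ILMN_2658407 turned to -0.0027 for Ifnar-/- and -0.16 for sLTβR-Fc, where ILMN_2672850 turned to 0.15, ILMN_2726261 to 0.18, ILMN_2672847 to 0.13, ILMN_2672846 to 0.16 and ILMN_1215781 to 0.080. Median scaling moved the median of all probes by 0.098 and 0.18. Relative to that median, Axl on the Ifnar-/- array was -1.50 as reported and -1.64 under both other scalings, and Elmo1 ILMN_2609025 at -1.02 and -1.11. Calls were gained as deposited by Mertk for Ifnar-/- (adjusted p = 0.032), Mfge8 NM_001045489 for sLTβR-Fc (-0.78, adjusted p = 0.0146) and Elmo1 ILMN_1249680 for both (-0.43 and -0.54). The other gains lie in Axl, further dim Elmo1 probes and Mertk under these scalings, Timd4 on Ifnar-/- among probes above background on at least 1 array (adjusted p = 0.045) and Anxa1 on sLTβR-Fc with 1 probe per gene (adjusted p = 0.0486), all by limma.

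Over all probes, limma called 2496 on the Ifnar-/- array, 3063 on the sLTβR-Fc array and 1778 between them. With the values as deposited the sLTβR-Fc count was 7543 (229 higher, 7314 lower), the Ifnar-/- count 3373 (299 higher, 3074 lower) and the direct one 1103 (862 higher, 241 lower), and under median scaling the sLTβR-Fc count was 7458 (5459 higher, 1999 lower). Without the variance trend the counts were 840, 719 and 276, and with values raised to the background limit 0, 0 and 0. Probes 2-fold from each control numbered 114 higher and 181 lower on the Ifnar-/- array (47 and 401 as deposited) and 181 higher and 94 lower on the sLTβR-Fc array (38 and 879 as deposited). The last count was 173 under median scaling and 157 after normexp background correction. Leaving out either control array gave 153 to 218 higher and 216 to 358 lower on the Ifnar-/- array, and 237 to 263 higher and 147 to 230 lower on the sLTβR-Fc array, by construction more than with both. The causes of the other changes were not tested. Probes near background, such as those of Mertk, Tyro3 and Gulp1, cannot show small changes.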
